A study of Mus musculus with 5 samples.

Results

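The hair keratin genes and the keratin-associated protein (Krtap) genes make the structural proteins of the hair shaft and of the sheath that moulds it. They were followed here on 5 one-colour CodeLink arrays of mouse back skin. Members were the gene probes whose platform symbol begins with Krtap or is Krt25 to Krt28, Krt31 to Krt40, Krt71 to Krt75 or Krt81 to Krt86. The rule itself reads symbols and no measured value, but the gene set was chosen with earlier results of these data known. It found 49 of the 34743 gene probes kept. Of these, 46 carried 1 symbol and stood for 46 of the 18467 genes with a symbol, with 1 probe a gene. The other 3 probes were shared by several members and are given apart. The 46 genes were 5 inner root sheath keratins, 1 companion layer keratin, 9 shaft keratins (6 of type I and 3 of type II) and 31 Krtap genes.

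The skin came from hairless albino mice, either Xpa mutants or wild type (WT). Xpa mutant skin was taken 3 h and 24 h after UVB at 1 kJ per square metre. WT skin was taken at the same 2 times after that dose, and also without UVB. Each of these 5 groups is 1 array of total RNA, and mutant skin without UVB was not analysed here. The Xpa allele, the gene behind hairlessness, the age, sex and number of the mice, and whether RNA was pooled are not given in the sources used here. Xpa binds damaged DNA as part of nucleotide excision repair, and the study was concerned with skin inflammation after UVB in mice that lack it.

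Hair is built in the bulb of a growing follicle. Cells of the inner root sheath express their own keratins, Krt25 to Krt28 of type I and Krt71 to Krt74 of type II, and form a stiff tube around the fibre, while the companion layer next to it expresses Krt75. Inside the tube, cells of cortex and cuticle switch on the shaft keratins in sequence and then the Krtap proteins, which are small, rich in cysteine or in glycine and tyrosine, and cross-link the keratin filaments. Hairless strains grow a first coat and then lose it, and their follicles later remain as cysts and remnants. In whole skin, fewer cells of a type and less RNA per cell cannot be told apart.

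Since a group is 1 array, no test, standard error or p-value could be given, and every difference compares 2 arrays, not 2 conditions. Levels are log2 of background-corrected, quantile-normalized intensity. A probe was above background where the scanner software had not flagged its signal as low, and across the arrays the dimmest named gene above background lay between 7.01 and 7.12. Genes above background on 1 or both arrays of a pair were compared, and counted as higher or lower at 2-fold, a log2 difference of 1. Where the dimmer side was below background the fold is a bound, written "at least", which sets the brighter value against the higher of the dim value itself and the lowest named gene above background on that array. A gene can therefore be counted and still have a bound under 2-fold. Each array had 23.5% to 25.1% of its gene probes above background, and 9 or 10 of 10 epidermal keratin genes were above it on every array. The Xpa probe was at 6.64 (3 h) and 6.42 (24 h) in mutant skin, and at 7.49 (no UVB), 7.13 (3 h) and 7.55 (24 h) in WT skin. It was above background only on the WT arrays without UVB and at 24 h, which makes it a weak check of the labels, and where it lies relative to the mutation is not known here.

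The promoters of 40 of the 46 genes were matched in RefSeq's table for GRCm38.p6, and 4 are shown because these genes stand for the patterns described below. Krtap21-1, Krt34 and Krt25 were highest on the mutant array at 3 h, and Krt31, which lies near Krt34 on chromosome 11, varied little. Each line holds the 250 bases before the annotated start, 5′ to 3′ on the minus strand, at chr16:89403775-89404024, chr11:100041555-100041804, chr11:99322952-99323201 and chr11:100050552-100050801. Capitals mark TATAAA, the TATA box, and CTTTGAA, the core letters bound by LEF1 and TCF factors.
Krtap21-1: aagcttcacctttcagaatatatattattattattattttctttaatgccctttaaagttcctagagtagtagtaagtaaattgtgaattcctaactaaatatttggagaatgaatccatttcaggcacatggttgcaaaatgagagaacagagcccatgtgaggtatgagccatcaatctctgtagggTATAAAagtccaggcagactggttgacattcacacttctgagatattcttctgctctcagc
Krt34: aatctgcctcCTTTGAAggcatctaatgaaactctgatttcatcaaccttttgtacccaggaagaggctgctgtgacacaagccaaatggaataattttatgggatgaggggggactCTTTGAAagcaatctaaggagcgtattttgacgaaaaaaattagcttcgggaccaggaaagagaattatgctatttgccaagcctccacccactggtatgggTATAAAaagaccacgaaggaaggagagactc
Krt25: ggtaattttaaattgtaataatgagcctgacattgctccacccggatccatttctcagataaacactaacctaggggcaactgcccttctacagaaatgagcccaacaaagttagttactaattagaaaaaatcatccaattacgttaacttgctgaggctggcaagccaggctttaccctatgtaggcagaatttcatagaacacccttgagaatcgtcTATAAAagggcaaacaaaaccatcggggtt
Krt31: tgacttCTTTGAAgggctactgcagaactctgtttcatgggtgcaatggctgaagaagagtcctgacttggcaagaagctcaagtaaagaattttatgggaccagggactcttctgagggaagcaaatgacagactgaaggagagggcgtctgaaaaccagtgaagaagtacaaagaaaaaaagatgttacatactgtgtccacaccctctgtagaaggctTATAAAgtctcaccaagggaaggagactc
The TATAAA of Krt34, Krt25 and Krt31 began 31, 30 and 29 bases before the start, and that of Krtap21-1 began 61 bases before it. Searched on both strands, TATAAA was in 32 of 40 member promoters (80%), against 12.4% of 32851 promoters of the same length. Counting only copies on the gene's strand that began 20 to 40 bases before the start, it was in 20 of 40 (50%), against 1.99% of all promoters. CTTTGAA, likewise on both strands, was in 6 of 40 (15.0%), against 4.46%. The 2 motifs share no bases in the promoters shown. Of the matched members, 20 were at least 2-fold above every other array on the mutant array at 3 h, and 20 were not. TATAAA was in 16 of the 20 promoters of the first and in 16 of the 20 others, and CTTTGAA was in 5 of 20 and in 1 of 20. A match is a string of letters and no measure of binding.

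The mutant array at 3 h carried more hair gene signal than any of the other 4 arrays. On it, 39 of the 46 genes were above background, as were 14 on the mutant array at 24 h. In WT skin 10 were above background without UVB, 19 at 3 h and 8 at 24 h. Of the 46 genes, 17 were above background on a single array, and for 17 of those 17 that array was the mutant array at 3 h. Only 4 genes (Krt31, Krt75, Krt84 and Krtap3-3) were above background on 5 of 5 arrays, and 7 were above it on 0 arrays. The median log2 level of the 46 genes was 8.39 (3 h) and 6.92 (24 h) in mutant skin, and 6.51 (no UVB), 7.01 (3 h) and 6.58 (24 h) in WT skin. The highest value of a gene lay on the mutant array at 3 h for 37 of 46 genes, some of which were below background on every array. For this count and for that of genes above background on a single array, the share over all genes was not computed.

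**Figure D1:**
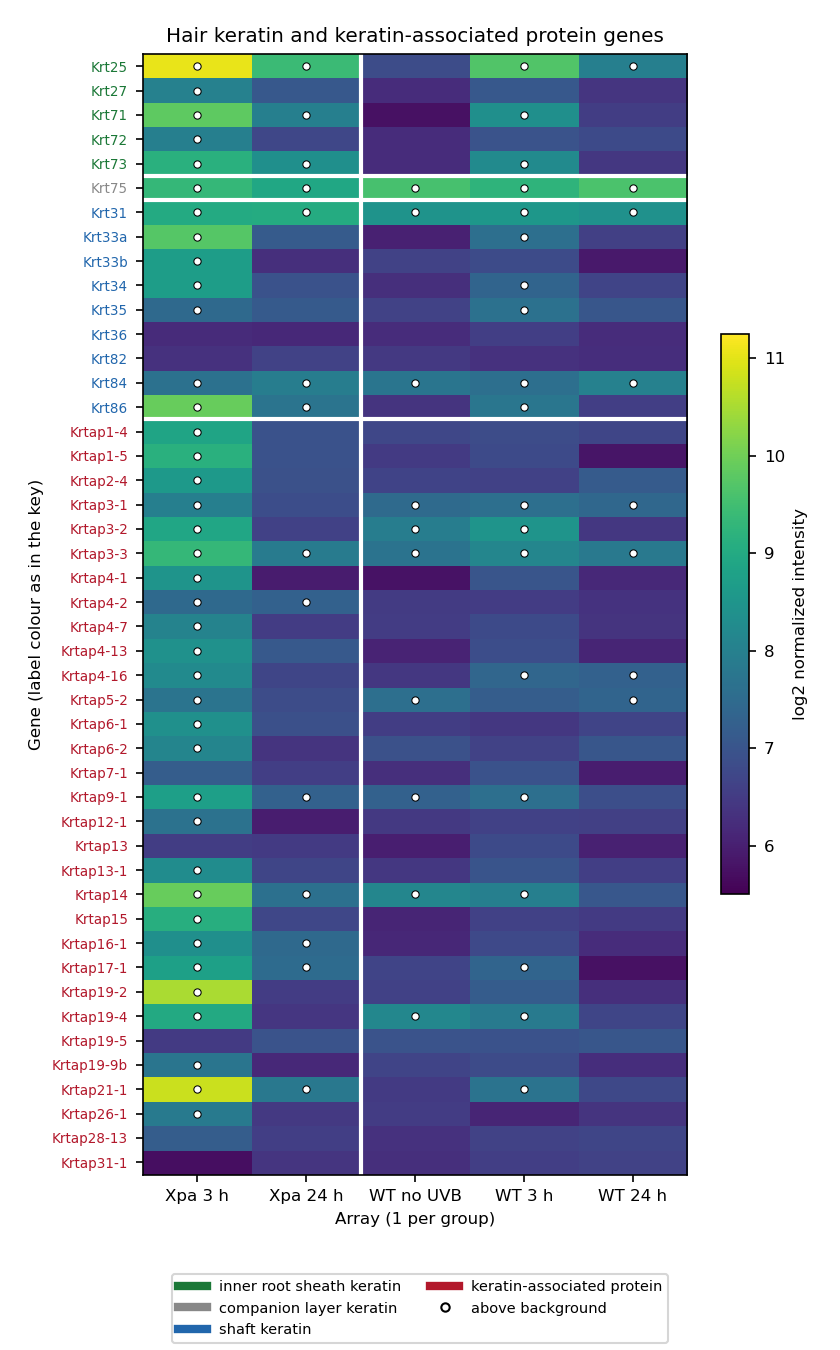
Log2 normalized intensity of the 46 genes (rows, with the symbol coloured by class) on the 5 arrays (columns, 1 array per group). A dot marks a value above background. The column of the mutant array at 3 h is the brightest and holds 39 dots, while the column of WT skin at 24 h holds 8.

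A narrower count asked which genes were at least 2-fold above each of the other 4 arrays on 1 array. On the mutant array at 3 h this held for 24 members, where 33 of the 8089 genes above background on any array (0.408%) met it, so that members made up 72.7% of the genes with that profile. The 24 were 18 Krtap genes, the shaft keratins Krt33a, Krt33b, Krt34 and Krt86, and the inner root sheath keratins Krt25 and Krt71. On each of the other 4 arrays the count of members with such a profile was 0, where 0.284% of genes met it for the mutant array at 24 h, 0.0742% for WT without UVB, 0.0124% for WT at 3 h and 0.235% for WT at 24 h.

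Inner root sheath keratins had signal at 3 h in WT skin as well as in mutant skin. Krt25 pairs with type II partners in the layers of the sheath. Krt25 had log2 levels of 11.05 (3 h) and 9.41 (24 h) in mutant skin, against 6.84 (no UVB), 9.69 (3 h) and 7.98 (24 h) in WT skin. Krt71 is the type II keratin of those layers. In mutant skin Krt71 was at 9.83 (3 h) and 7.98 (24 h), and in WT skin it was at 5.76 (no UVB), 8.37 (3 h) and 6.55 (24 h). Krt73, a type II keratin of the sheath cuticle, gave the flattest profile of the 3 in mutant skin. Krt73 measured 9.16 (3 h) and 8.36 (24 h) in the mutant, and 6.22 (no UVB), 8.26 (3 h) and 6.42 (24 h) in WT. In WT skin these 3 genes were below background without UVB and above it at 3 h. At 24 h they were above background in mutant skin, and in WT skin at that time Krt25 alone was. The other members of the class were above background on the mutant array at 3 h only. In mutant skin Krt27 was at 8.03 (3 h) and 7.08 (24 h), and in WT skin it was at 6.23 (no UVB), 7.09 (3 h) and 6.40 (24 h). Krt72 had log2 levels of 7.97 (3 h) and 6.72 (24 h) in mutant skin, against 6.23 (no UVB), 6.97 (3 h) and 6.79 (24 h) in WT skin. Krt27 is a type I keratin of the sheath and Krt72 a type II keratin of its cuticle. The order of the arrays was the same for Krt25 and Krt71, with mutant 3 h first, WT 3 h next and mutant 24 h after it, and Krt73 had mutant 24 h ahead of WT 3 h by 0.1 on the log2 scale.

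Krt75, the companion layer keratin, ran differently from the sheath keratins beside it. In mutant skin Krt75 was at 9.34 (3 h) and 8.91 (24 h), and in WT skin it was at 9.58 (no UVB), 9.24 (3 h) and 9.63 (24 h). It was above background on 5 of 5 arrays and its highest value was on the WT array at 24 h. The whole range of its levels was 0.71 on the log2 scale.

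**Figure D2:**
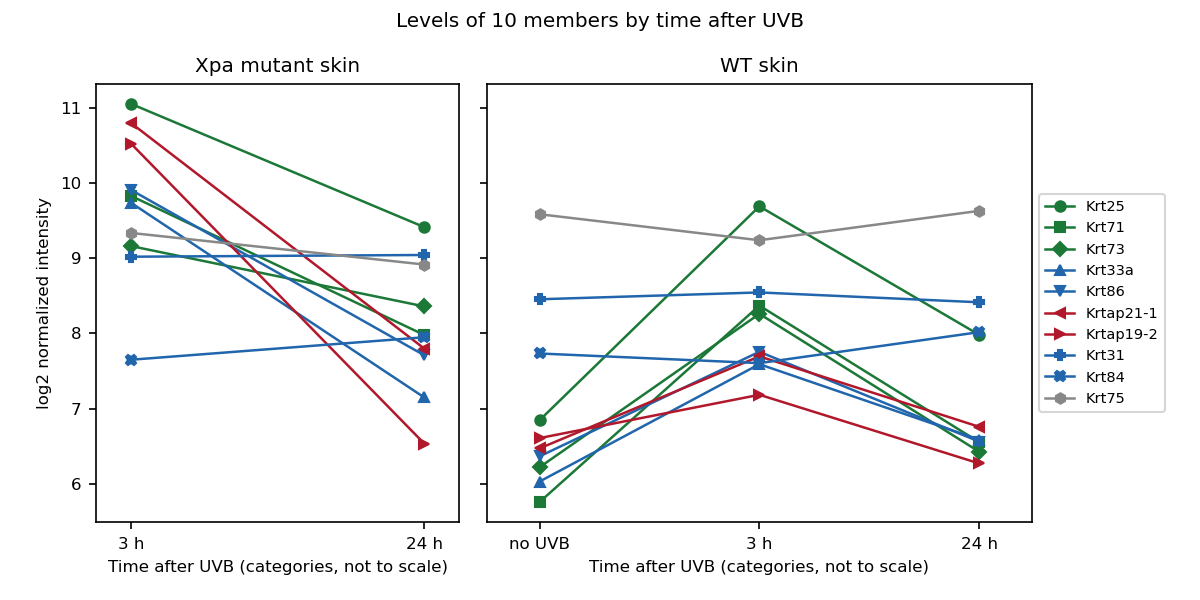
Log2 normalized intensity of 10 of the genes by time after UVB, in Xpa mutant skin (left) and WT skin (right), with 1 array per point. The sheath keratins Krt25, Krt71 and Krt73 peak at 3 h in WT skin and are higher at 3 h than at 24 h in mutant skin, while Krt31, Krt84 and Krt75 stay nearly level.

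Of the 9 shaft keratins, 4 were clearly brightest on the mutant array at 3 h. Krt86 is a type II keratin of the cortex. Krt86 had log2 levels of 9.91 (3 h) and 7.71 (24 h) in mutant skin, against 6.36 (no UVB), 7.75 (3 h) and 6.56 (24 h) in WT skin. Krt33a and Krt33b are type I cortex keratins made by neighbouring genes. In mutant skin Krt33a was at 9.73 (3 h) and 7.15 (24 h), and in WT skin it was at 6.03 (no UVB), 7.59 (3 h) and 6.59 (24 h). Krt33b measured 8.71 (3 h) and 6.28 (24 h) in the mutant, and 6.63 (no UVB), 6.80 (3 h) and 5.90 (24 h) in WT. Krt34 is a further type I keratin of the same cluster. Krt34 had log2 levels of 8.70 (3 h) and 6.94 (24 h) in mutant skin, against 6.28 (no UVB), 7.36 (3 h) and 6.69 (24 h) in WT skin. These 4 genes had their highest value on the mutant array at 3 h, and 3 of them, Krt86, Krt33a and Krt34, were next highest on the WT array at 3 h and above background there. Krt33b was above background on the mutant array at 3 h only.

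Krt31 and Krt84 were nearly level. Krt31 is a type I cortex keratin. In mutant skin Krt31 was at 9.02 (3 h) and 9.04 (24 h), and in WT skin it was at 8.45 (no UVB), 8.54 (3 h) and 8.41 (24 h). Its mutant values were above its WT values, by less than 2-fold. Krt84 is a type II keratin known from nail and tongue epithelium in humans. Krt84 measured 7.65 (3 h) and 7.95 (24 h) in the mutant, and 7.73 (no UVB), 7.60 (3 h) and 8.02 (24 h) in WT. Its range over the arrays was 0.41. Krt35, a type I keratin made early in the matrix and cuticle, was above background at 3 h in both genotypes. Krt35 had log2 levels of 7.47 (3 h) and 7.14 (24 h) in mutant skin, against 6.63 (no UVB), 7.64 (3 h) and 7.04 (24 h) in WT skin. Its mutant and WT values at 3 h differed by -0.17 (log2, mutant minus WT). The remaining 2 shaft keratins, 1 of type I and 1 of type II, were below background on 5 of 5 arrays, at levels from 6.17 to 6.64.

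The Krtap genes with the largest excursions belong to the glycine-tyrosine-rich families. Krtap21-1 had log2 levels of 10.79 (3 h) and 7.80 (24 h) in mutant skin, against 6.47 (no UVB), 7.69 (3 h) and 6.76 (24 h) in WT skin. In mutant skin Krtap19-2 was at 10.52 (3 h) and 6.53 (24 h), and in WT skin it was at 6.61 (no UVB), 7.18 (3 h) and 6.27 (24 h). Krtap21-1 was also above background on the mutant array at 24 h and the WT array at 3 h, and Krtap19-2 was not. Family 6, of the same type, had 2 genes, both above background on the mutant array at 3 h only. Krtap6-1 measured 8.38 (3 h) and 6.90 (24 h) in the mutant, and 6.55 (no UVB), 6.43 (3 h) and 6.69 (24 h) in WT. Krtap6-2 had log2 levels of 8.11 (3 h) and 6.38 (24 h) in mutant skin, against 6.93 (no UVB), 6.64 (3 h) and 7.03 (24 h) in WT skin. Their WT levels lay between 6.43 and 7.03 and stayed below background. Krtap19-4 departed from this, being above background on the WT arrays without UVB and at 3 h as well. In mutant skin Krtap19-4 was at 9.0 (3 h) and 6.41 (24 h), and in WT skin it was at 8.16 (no UVB), 7.85 (3 h) and 6.69 (24 h). The third gene of family 19 with signal, Krtap19-9b, was at 7.74 on the mutant array at 3 h and below background elsewhere. Near-identical copies may share signal on these probes, and probe sequences were not used here, so values of single genes in families 1, 4, 6 and 19 are uncertain.

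Families 1 and 2, high-sulfur proteins of the cortex, were above background on the mutant array at 3 h only. Krtap1-4 measured 8.85 (3 h) and 6.96 (24 h) in the mutant, and 6.72 (no UVB), 6.83 (3 h) and 6.70 (24 h) in WT. Krtap1-5 had log2 levels of 9.15 (3 h) and 6.95 (24 h) in mutant skin, against 6.47 (no UVB), 6.80 (3 h) and 5.83 (24 h) in WT skin. In mutant skin Krtap2-4 was at 8.61 (3 h) and 6.93 (24 h), and in WT skin it was at 6.65 (no UVB), 6.62 (3 h) and 7.15 (24 h). Their levels on the other 4 arrays ran from 5.83 to 7.15. Family 3, also high-sulfur, had 3 of 3 genes above background without UVB. Krtap3-1 measured 7.98 (3 h) and 6.86 (24 h) in the mutant, and 7.48 (no UVB), 7.60 (3 h) and 7.43 (24 h) in WT. Krtap3-2 had log2 levels of 8.90 (3 h) and 6.62 (24 h) in mutant skin, against 7.94 (no UVB), 8.48 (3 h) and 6.43 (24 h) in WT skin. In mutant skin Krtap3-3 was at 9.32 (3 h) and 7.90 (24 h), and in WT skin it was at 7.69 (no UVB), 8.15 (3 h) and 7.83 (24 h). Krtap3-2 had its lowest values at 24 h in both genotypes, and Krtap3-1 ranged over 1.12 on the log2 scale. Other high-sulfur genes with signal, on chromosome 16, and Krtap12-1 on chromosome 10, had their highest value on the mutant array at 3 h. Krtap14 measured 9.92 (3 h) and 7.62 (24 h) in the mutant, and 8.13 (no UVB), 7.98 (3 h) and 7.06 (24 h) in WT. Krtap15 had log2 levels of 9.10 (3 h) and 6.72 (24 h) in mutant skin, against 6.10 (no UVB), 6.61 (3 h) and 6.48 (24 h) in WT skin. Krtap14 was above background on 4 arrays and Krtap15 on 1. In mutant skin Krtap13-1 was at 8.30 (3 h) and 6.71 (24 h), and in WT skin it was at 6.43 (no UVB), 7.0 (3 h) and 6.58 (24 h). Krtap26-1 measured 7.86 (3 h) and 6.45 (24 h) in the mutant, and 6.53 (no UVB), 6.10 (3 h) and 6.36 (24 h) in WT. Krtap12-1 had log2 levels of 7.66 (3 h) and 5.96 (24 h) in mutant skin, against 6.46 (no UVB), 6.62 (3 h) and 6.58 (24 h) in WT skin. These last 3 were above background on the mutant array at 3 h only.

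Families 4, 5 and 9 are ultra-high-sulfur proteins. Of the 5 genes of family 4, 5 were above background on the mutant array at 3 h. In mutant skin Krtap4-1 was at 8.48 (3 h) and 5.95 (24 h), and in WT skin it was at 5.79 (no UVB), 7.02 (3 h) and 6.17 (24 h). Krtap4-13 measured 8.41 (3 h) and 7.10 (24 h) in the mutant, and 6.07 (no UVB), 6.87 (3 h) and 6.09 (24 h) in WT. Krtap4-7 had log2 levels of 8.07 (3 h) and 6.51 (24 h) in mutant skin, against 6.51 (no UVB), 6.80 (3 h) and 6.36 (24 h) in WT skin. For Krtap4-1, Krtap4-13 and Krtap4-7 that was the only such array. In mutant skin Krtap4-16 was at 8.25 (3 h) and 6.70 (24 h), and in WT skin it was at 6.43 (no UVB), 7.40 (3 h) and 7.29 (24 h). Krtap4-16 was above background in WT skin after UVB too, at both times. Krtap4-2 was above background in mutant skin at both times, at 7.46 (3 h) and 7.29 (24 h), and below it in WT skin. Krtap9-1 measured 8.74 (3 h) and 7.29 (24 h) in the mutant, and 7.28 (no UVB), 7.61 (3 h) and 6.88 (24 h) in WT. Krtap5-2 had log2 levels of 7.72 (3 h) and 6.83 (24 h) in mutant skin, against 7.60 (no UVB), 7.20 (3 h) and 7.35 (24 h) in WT skin. Krtap9-1 was above background on 4 arrays. Krtap5-2, of a family made in the hair cuticle in humans, was level within 0.9 on the log2 scale. In mutant skin Krtap16-1 was at 8.36 (3 h) and 7.46 (24 h), and in WT skin it was at 6.14 (no UVB), 6.78 (3 h) and 6.22 (24 h). Krtap17-1 measured 8.78 (3 h) and 7.51 (24 h) in the mutant, and 6.68 (no UVB), 7.34 (3 h) and 5.76 (24 h) in WT. Krtap16-1 and Krtap17-1 were above background in mutant skin at both times, and Krtap17-1 also in WT skin at 3 h. The 5 Krtap genes without signal on any array belong to families 7, 13, 19, 28 and 31, at levels from 5.71 to 7.20.

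Mutant and WT skin at 3 h after UVB were compared to ask how they differ early. At 2-fold, hair genes were higher in the mutant and 0 were lower, and with no threshold 40 of the 46 had a difference above 0. Of the 46 genes 26 were past 2-fold, where 1.12% of the 6863 genes compared were higher and 0.991% lower. A gene bright on 1 array only was compared because of that array, so counts with no filter are given as well. With no filter the count was still 26 of 46, against 0.774% of 18467 genes higher and 0.661% lower, and the median log2 difference over the 46 genes was 1.16, against 0.01 over the genes compared. The single-gene spread was 0.28 (robust SD over the genes compared). Among genes above background on both arrays the count was 11 of 19 members, where 0.332% of genes were higher.

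By role, 20 of 31 Krtap genes, 4 of 9 shaft keratins, 2 of 5 inner root sheath keratins and 0 of 1 companion layer keratins were at least 2-fold higher in mutant skin at 3 h. Over every member of the class, with no filter, the median log2 difference was 1.27 for Krtap genes, 0.48 for shaft keratins and 1.00 for inner root sheath keratins. The largest differences were at least 10.1-fold for Krtap19-2 and 8.58-fold for Krtap21-1. Krt86 was 4.44-fold and Krt33a 4.42-fold higher, with signal on both arrays. Krtap1-5 was at least 4.25-fold, Krtap15 at least 4.08-fold and Krtap1-4 at least 3.45-fold higher. Krtap14 was 3.84-fold, Krt33b at least 3.11-fold and Krtap2-4 at least 2.91-fold higher. Krtap6-1 was at least 2.47-fold and Krtap26-1 at least 1.73-fold higher. The sheath genes Krt71 and Krt25 were 2.75-fold and 2.57-fold higher, and the remaining 3 sheath genes had differences of 0.90 to 1.00 (log2).

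**Figure D3:**
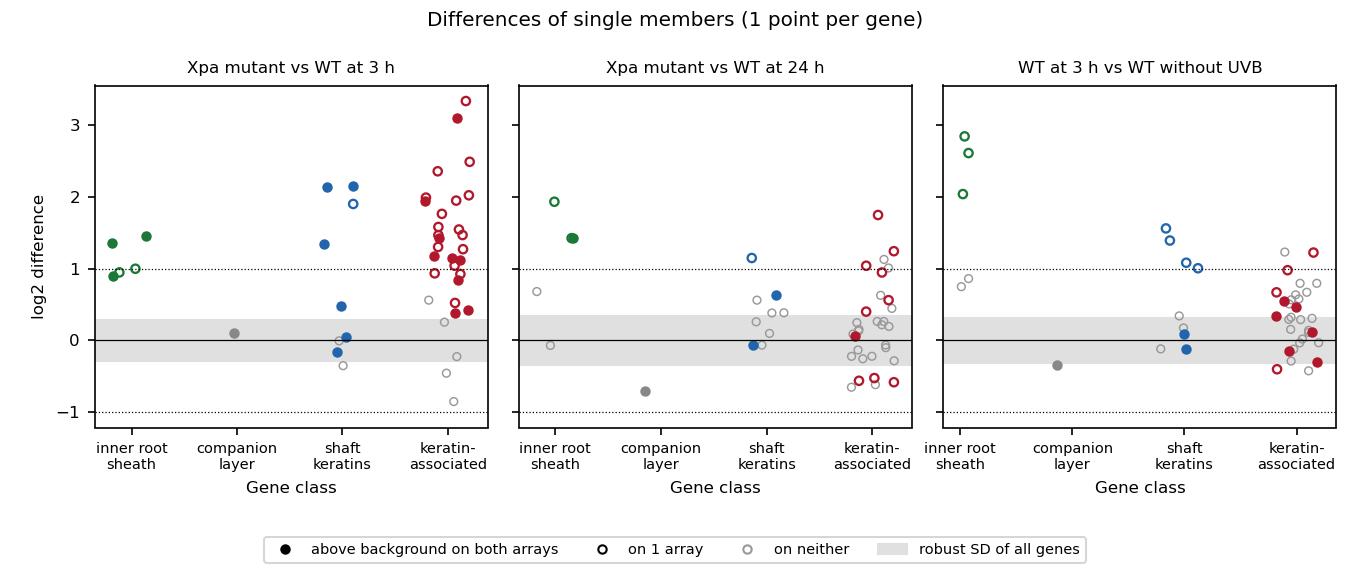
Log2 difference of each gene (1 point per gene) by class, for the mutant against WT at 3 h (left), the mutant against WT at 24 h (middle) and WT at 3 h against WT without UVB (right). Filled points had signal above background on both arrays, open coloured points on 1 and grey points on neither, the dotted lines mark 2-fold, and the band is the robust SD of the genes compared. At 3 h 26 points lie above the upper line and 0 below the lower one.

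The count was also taken by family and by chromosome. In family 1 it was 2 of 2 genes, in family 2 it was 1 of 1, in family 4 it was 3 of 5 and in family 6 it was 2 of 2. In family 3 it was 1 of 3, Krtap3-3 at 2.26-fold, and in family 5 it was 0 of 1. It was 2 of 4 in family 19, 1 of 2 in family 13 and 0 of 1 in each of families 7, 28 and 31. Families 9, 12, 14, 15, 16, 17, 21 and 26 had 1 of 1 each. By RefSeq's table the 46 genes lie on chromosomes 1, 7, 10, 11, 15 and 16, with 23 of them on chromosome 11. Over every member, 14 of 23 on chromosome 11, 9 of 13 on chromosome 16 and 2 of 7 on chromosome 15 were at least 2-fold higher. Of these members 21, 10 and 6 were compared, some of them only because they were bright on the mutant array. The genes of chromosome 15 are keratins of type II and hold no Krtap gene.

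Genes that lie between members in RefSeq's order but whose symbols fall outside the rule were read beside them. There were 16 with a probe, 9 were compared at 3 h, and at 2-fold 3 were higher in mutant skin and 0 lower. The 3, Gm11563 at 4.80-fold, Gm10228 at least 4.01-fold and Gm9789 at least 2.10-fold, are predicted genes that were picked out after their values were seen. The keratin genes of epidermis and simple epithelia in the same intervals (Krt5, Krt6a, Krt6b, Krt10, Krt20 and Krt23) differed by less than 2-fold. Krt10, for example, was at 14.04 in mutant skin at 3 h, against 13.69 in WT skin at 3 h.

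Other lists of genes were read at 3 h for comparison. Among 17 listed hair shaft and sheath proteins that are not keratins, 9 were compared, 3 were higher in the mutant and 0 lower, and their median log2 difference was 0.48. The 3 were S100a3, a calcium-binding protein of the hair cuticle, at 2.90-fold, Crym, a thyroid hormone-binding protein found in follicles, at 2.09-fold, and Vsig8, a surface protein of hair-forming cells, at 2.06-fold. Of 15 follicle regulators compared 0 passed 2-fold in either direction (median -0.11), and Foxn1, a transcription factor needed for shaft differentiation, was below background on 5 of 5 arrays. Hoxc13, a transcription factor that drives shaft keratin genes, was below background in mutant skin at 3 h (7.20). It was above background in WT skin at 3 h (7.23), near the limit. Lef1 (7.22 in the mutant, 7.37 in WT), Sox21 (7.03 and 7.81) and Smad4 (6.835 and 7.63) had the same flags at 3 h. No regulator on the list had the reverse. Of 10 epidermal keratins 0 passed (median -0.05), and of 7 outer root sheath and bulge genes 0 passed (median 0.02). Of the 10 dermal papilla markers 1 was compared, and of the 8 melanocyte markers 0 were above background on either array.

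Markers of other tissues were also set beside this difference. Skeletal muscle genes had a median log2 difference of 0.39 at 3 h (18 compared, 0 past 2-fold), with a summed intensity of 93850 in mutant skin and 78878 in WT skin. Adipocyte genes had 0.28 (9 compared, 0 past 2-fold), with sums of 16935 in mutant skin and 13762 in WT skin. Sebaceous gland genes had -0.24 (9 compared, 0 past), fibroblast and matrix genes -0.07 (13, 0 past) and cell cycle genes -0.05 (8, 0 past). The summed intensity of the 46 hair genes at 3 h was 21478 in mutant skin and 8423 in WT skin. The part of muscle and fat in the difference was not tested. In WT skin without UVB the muscle sum was 86200 and the hair gene sum 5976.

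**Figure D4:**
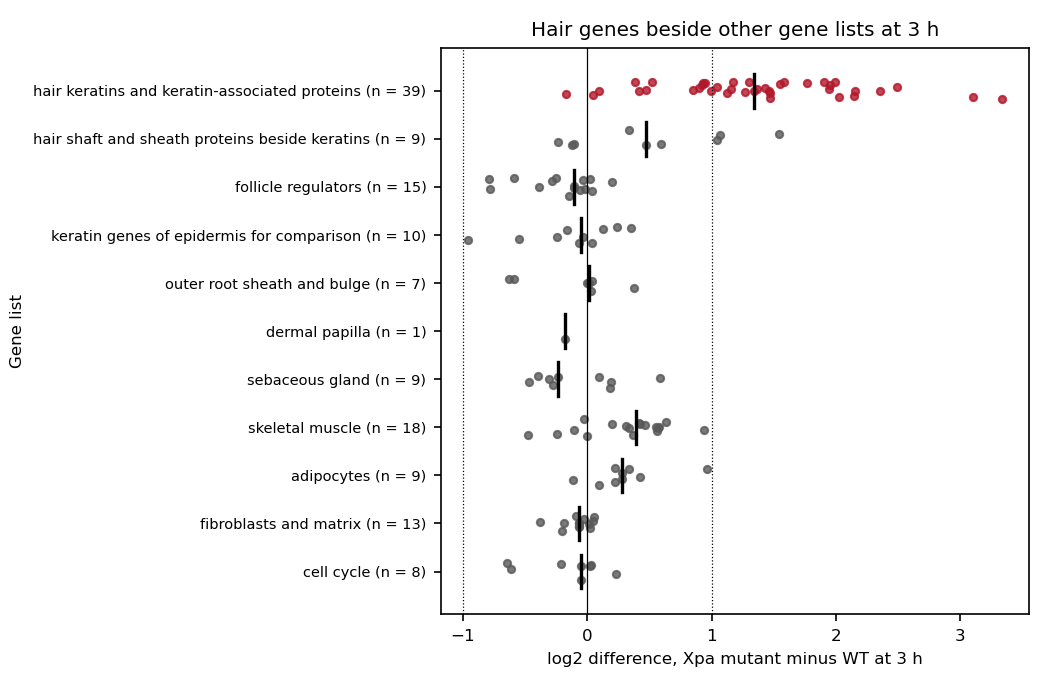
Log2 difference between mutant and WT skin at 3 h for the genes above background on either array (1 point per gene) in the hair gene set and 10 other lists, with the median as a bar and 2-fold as dotted lines. The 39 hair genes compared have 26 points past the upper line, and the follicle regulators and epidermal keratins have 0.

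Place on the slide was checked too. Members lay in rows 11 to 402 of 409, and 878 other gene probes lay within 2 rows and 2 columns of one. The median log2 difference of these neighbours at 3 h was -0.01, and 0 of the 260 compared were at least 2-fold higher. Of the 46 members, 11 carried the scanner's contaminated-background flag on the mutant array at 3 h, where 14.9% of gene probes did. Without spots flagged so on either array, 15 of 24 members compared were at least 2-fold higher, where 0.924% of 4870 genes were. The filter on dim probes was kept there, so some of the 24 were compared only through the mutant array at 3 h.

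At 24 h after UVB fewer hair genes differed between mutant and WT. Of the 46 genes 7 were at least 2-fold higher and 0 lower among the 17 compared, where 1.6% of genes were higher and 2.66% lower. With no filter 9 of 46 were higher and 0 lower, against 0.915% and 1.45% of genes, and the median over the 46 genes was 0.23. The 3 inner root sheath genes with signal were among the 7: Krt73 was at least 2.44-fold, Krt25 2.70-fold and Krt71 at least 1.88-fold higher. The others were Krt86 at least 1.56-fold, Krtap21-1 at least 1.66-fold, Krtap17-1 at least 1.36-fold and Krtap16-1 at least 1.31-fold higher, and the WT side of each was below background. Scaling by the spiked control probes, which moved the median of the genes compared to -0.62, left 2 members higher and made 4 lower. Of the genes compared, 0.211% were then higher and 14.9% lower. On that scale the median over the members compared was 0.85 for inner root sheath keratins (3 genes), -0.09 for Krtap genes (10) and -0.04 for shaft keratins (3). Of the 3 sheath genes, Krt71 and Krt73 were compared only through their signal on the mutant array. With no filter and the main scaling, the medians over every member of these classes were 1.425, 0.152 and 0.381. Among genes with signal on both arrays 1 of 5 members was higher, Krt25, where 0.705% of genes were.

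The values of other lists at 24 h are given beside these. Sebaceous gland genes had 5 of 9 at least 2-fold lower and 0 higher in the mutant (median -1.02), and epidermal keratins 4 of 10 lower and 0 higher (median -0.68), namely Krt6b, Krt16, Krt17 and Krt6a. Fibroblast and matrix genes had 3 of 14 higher and 0 lower (median 0.58). Of the hair shaft and sheath proteins beside keratins, S100a3, at least 2.02-fold, and Crym, at least 1.54-fold, were higher among 10 compared. These lists were not recomputed with spike scaling, and their part in the hair gene values was not tested.

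In WT skin at 3 h against WT skin without UVB, the inner root sheath keratins differed most. Of the 46 genes 8 were at least 2-fold higher and 0 lower among the 20 compared, where 2.27% of genes were higher and 1.26% lower. With no filter 9 of 46 were higher and 0 lower, against 1.19% and 0.801% of genes, and the median over the 46 genes was 0.34. Krt25 was at least 6.40-fold, Krt71 at least 2.56-fold and Krt73 at least 2.38-fold higher at 3 h. The shaft keratins Krt86, Krt35, Krt33a and Krt34 were at least 1.68-fold, 1.55-fold, 1.49-fold and 1.27-fold higher, and Krtap21-1 was at least 1.61-fold higher. Each of the 8 was below background without UVB, so among members with signal on both arrays the count was 0 of 9, where 0.907% of genes were higher. Over every member of its class the median was 2.04 for inner root sheath keratins, 0.34 for shaft keratins and 0.31 for Krtap genes. Skeletal muscle genes had a median of -0.02 here (18 compared, 0 past 2-fold), and fibroblast and matrix genes had 2 of 14 lower and 0 higher (median -0.38). Their part was not tested.

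The WT array at 3 h serves both as the later side of this comparison and as the WT side of the comparison with the mutant, so their values are set side by side and no relation between them is computed. Without UVB the 3 genes that follow were below background, so their first value is a bound. Krt25 had a log2 difference of at least 2.68 between WT at 3 h and WT without UVB, and of 1.36 between mutant and WT at 3 h. For Krt71 these were at least 1.36, and 1.46. For Krt86 they were at least 0.74, and 2.15. What the mutant skin held before UVB is not known here, so a difference present without UVB and one that follows UVB cannot be told apart.

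In WT skin at 24 h against WT skin without UVB little of the 3 h pattern was seen. Of 12 members compared 1 was at least 2-fold higher and 3 were lower, where 2.45% of genes were higher and 2.22% lower. With no filter the counts were 1 higher and 3 lower of 46, against 1.35% and 1.17% of genes, and the median over the 46 genes was 0.07. The higher gene was Krt25, at least 1.96-fold. The lower ones were 3 Krtap genes with signal in unirradiated skin, Krtap19-4 at least 2.13-fold, Krtap14 at least 2.09-fold and Krtap3-2 at least 1.82-fold. In the same comparison 9 of 18 skeletal muscle genes were lower and 0 higher (median -1.03, summed intensity 49728 at 24 h and 86200 without UVB). Fibroblast and matrix genes had 4 of 14 lower and 0 higher (median -0.43, sum 15404 at 24 h and 33566 without UVB). Their part in the hair gene values was not tested.

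Between the 2 times, hair genes past 2-fold were lower at 24 h than at 3 h, many of them in mutant skin and fewer in WT skin. In mutant skin 30 of the 46 genes were at least 2-fold lower at 24 h and 0 higher among the 39 compared, where 3.77% of genes were lower and 2.44% higher. The median over the 46 genes, with no filter, was -1.46. With no filter 30 of 46 members were lower and 0 higher, against 1.85% and 1.22% of genes. Krtap19-2 was at least 11.1-fold, Krtap21-1 7.99-fold and Krt33a at least 6.01-fold lower at 24 h. Krtap14 was 4.92-fold, Krt86 4.59-fold and Krt71 3.60-fold lower, with signal at both times. In WT skin 8 of 46 were at least 2-fold lower at 24 h and 0 higher among the 20 compared, where 2.22% of genes were lower and 2.09% higher. With no filter these counts were 8 and 0 of 46, against 1.14% of genes lower and 1.14% higher. The median over the 46 genes was -0.50 there, and 10 of 46 had a difference above 0. Among those with signal at both times 1 of 7 was lower, where 1.23% of genes were. The 8 were Krt25 (3.27-fold), Krt71, Krt73, Krt86, Krt33a, Krtap3-2, Krtap17-1 and Krtap19-4. Skeletal muscle genes differed the same way over this interval. In mutant skin 7 of 18 were lower and 1 higher at 24 h (median -0.69, summed intensity 56279 at 24 h and 93850 at 3 h). In WT skin 8 of 18 were lower and 0 higher (median -0.79, sum 49728 at 24 h and 78878 at 3 h). The part of muscle in the hair gene differences was not tested. The mutant comparison uses the same array at 3 h as the comparison with WT, so it gives no separate view of that array, and whether the mutant and WT courses differ was not tested.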

How the data were processed

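RNA of 5 skin samples was read on 1 CodeLink array each. The deposited scanner tables give, per the file headers, each spot's mean intensity, the median intensity around it and a quality flag, quantified with CodeLink Expression Analysis 5.0.0.31312. The authors' normalized table holds intensity with a median of 46.26 on each array. It equals the series matrix in 181135 of 181135 cells within 0.001. Its normalization software was not given in the sources used here.

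Scanner values were background-corrected (normexp, offset 50) and quantile normalized over 34743 gene probes with limma 3.58.1 in R 4.3.3, then taken to log2, so the offset understates folds of dim genes. Probes masked (126) or irregular (98) on any array were left out, among them 0 members. The number of arrays limits the precision. Further steps used Python 3.11.15, numpy 2.4.6, pandas 2.3.3 and matplotlib 3.10.9. Background correction and normalization were tested on simulated data, with folds set only in probes above background on every array. The filter on dim probes and the bounds were not tested so. Platform annotation named 21471 probes and RefSeq accessions 533, while 678 with several symbols named no gene. Genes with several probes were represented by the brightest.

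Members and lists were chosen with earlier results of these data known. Levels are given for members above background on at least 3 arrays and those with the largest differences among the rest, and folds for up to 12 per comparison. Alternatives changed the background correction, the scaling, the filter on dim probes, the probe rule and the bound.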

Additional observations from a re-analysis of the deposited data

Results flagged for a closer look

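The 3 probes shared by several members enter none of the counts above, and they carried signal on the mutant array at 3 h where the unirradiated WT array had none above background. The probe shared by Krtap6-5 and Krtap6-1 was at 10.75 on the mutant array at 3 h, against 6.65 in WT skin without UVB. It had signal on the mutant array at 24 h (7.84) and the WT array at 3 h (8.03) as well, and was 6.59-fold higher in the mutant than in WT at 3 h. The probe shared by Krtap19-2, Krtap19-3, Krtap19-4 and Krtap16-3 was at 10.46 on the mutant array at 3 h, against 6.56 in WT skin without UVB, and was at least 10.5-fold higher in the mutant than in WT at 3 h. The probe shared by Krt81, Krt83 and Krt87, type II shaft keratin genes of which Krt81 and Krt83 fall under the rule, was at 9.11 on the mutant array at 3 h, against 6.88 in WT skin without UVB. It was at least 4.13-fold higher in the mutant than in WT at 3 h. Which gene gave the signal of a shared probe cannot be told from these arrays.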

How the results depend on the processing

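Recomputed counts stayed within 1.5 times the reported count in 93 cases and left it in 23. The 93 include counts of 0 that stayed 0, such as members lower in the mutant at 3 h, so they overstate how steady the other counts were. Of the values of single counted members, 566 of 566 kept their sign. Filters leave such a value unchanged and the bound cannot turn its sign. Only the changes of background correction and scaling and the authors' table could have turned it. Shares of all genes under the same setting stand in brackets. For the mutant against WT at 3 h, 11 of 19 members were higher with signal required on both arrays (0.332%). Without contaminated-background spots, an alternative chosen after seeing the data, 15 of 24 were (0.924%). At 24 h that comparison gave 4 higher with no background correction (0.816%), and 2 higher (0.211%) and 4 lower (14.9%) with spike scaling. It gave 1 higher with signal on both arrays (0.705%), 2 with the dim side at its bound (0.76%) and 3 without contaminated spots (1.49%). WT at 3 h against no UVB gave 4 higher with no background correction (1.2%) and 0 with signal on both arrays (0.907%). It gave 3 at the bound (1.25%) and 5 without contaminated spots (2.2%). WT at 24 h against no UVB gave 0 higher with no background correction (1.25%), with signal on both arrays (1.15%) and at the bound (1.42%). It gave 2 with the authors' table (5.51%) and with spike scaling (3.84%), while 0 were lower with signal on both arrays (1.22%). Mutant at 24 h against 3 h gave 8 of 14 lower with signal on both arrays (2.33%) and 15 of 23 without contaminated spots (3.58%). WT at 24 h against 3 h gave 5 lower with spike scaling (1.04%), 1 with signal on both arrays (1.23%) and 4 at the bound (1.26%). Requiring signal on both arrays leaves fewer genes, and turned the shaft keratin median to -0.018 (2 genes) for WT at 3 h against no UVB and to 0.023 (3 genes) for mutant at 24 h against 3 h. For other shifts the cause was not tested. Under spike scaling the median of the genes compared was -0.21 (mutant against WT, 3 h), -0.62 (24 h), -0.15 (WT 3 h against no UVB), 0.17 (WT 24 h against no UVB), -0.08 (mutant 24 h against 3 h) and 0.31 (WT 24 h against 3 h). Under other background corrections and scalings, 36 to 38 members were highest on the mutant array at 3 h, a count whose share over all genes was not computed. On that array 19 to 29 members were at least 2-fold above each other array, where 26 to 49 of all genes, members included, were. No paired analysis was possible because each group is 1 array. Among the members, 17 were below background on 4 of 5 arrays and 7 on 5 of 5. A comparison with 1 side below background gives at most a bound, and 1 with both sides below it gives no fold.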

Other observations

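Besides the 24 members, 9 genes were at least 2-fold above each of the other 4 arrays on the mutant array at 3 h, and they are named here after their values were seen. They are Gm11563, Gm10228, Gm9789, S100a3, Prr9, Crnn, Mettl1, Daglb and Gm1966. Prr9, a proline-rich protein gene, was at 9.87 (3 h) and 8.39 (24 h) in mutant skin, against 5.93 (no UVB), 8.35 (3 h) and 6.80 (24 h) in WT skin. S100a3 was at 9.67 (3 h) and 8.08 (24 h) in mutant skin, against 6.30 (no UVB), 8.13 (3 h) and 6.73 (24 h) in WT skin. Both were above the other WT arrays at 3 h in WT skin, as Krt25 and Krt71 were. Mettl1, which modifies transfer RNA, was at 9.72 in mutant skin at 3 h, against 7.93 in WT skin at 3 h.

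The probe of Krtap19-4 alone and the probe it shares with Krtap19-2, Krtap19-3 and Krtap16-3 disagreed on unirradiated WT skin. The first was at 8.16 and above background there, and the second was at 6.56 and below it. On the mutant array at 24 h the first was below background (6.41) and the second above it (7.42).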
